A study of Mus musculus with 8 samples.

Results

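Broad H3K4me3 peaks that carried no peak of the histone acetyltransferase MOF were examined in mouse epidermis. A peak was taken as broad when it spanned at least 1500 bp, and as MOF-free when no base of it overlapped a MOF peak. Of the 27039 peaks of the H3K4me3 list, 26246 lay on chromosomes 1 to 19, and 4476 of these were broad. No MOF peak touched 2067 of them, the MOF-free broad peaks described here, and 2409 equally broad peaks that did overlap MOF served for comparison. Over all H3K4me3 peaks of these chromosomes, 70.8% had no MOF. The peaks were thus chosen by 2 measured values, their width and their overlap with MOF, and both are given only as a description, as is H3K4me3 enrichment, which comes from the same list. The study mapped MOF by ChIPseq, in which fixed and sheared chromatin is pulled down with an antibody, and Rfx2, H3K4me3 and H3K27ac by Cut&Run, in which a nuclease directed by an antibody cuts out the bound fragments. Each library was made from total epidermis of newborn mice (P0.5) of the genotype Wildtype, so no allele or treatment set the groups apart. Of the 8 samples with 6 antibodies, the peak lists of MOF, Rfx2, H3K4me3 and H3K27Ac were analysed, 1 list for each antibody, while the H4K16Ac and H3K4me1 libraries were not used here, and whether the H3K4me3 list came from the first library or from its repeat is not certain. The groups compared are sets of peaks within the same libraries. Total epidermis holds several cell types, and a region that carries H3K4me3 and MOF in different cells cannot be told apart from one that carries both in the same cells.

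Trimethylation of lysine 4 of histone H3 (H3K4me3) is written around active transcription start sites (TSSs) by SET1 and MLL complexes, and is usually centred on CpG islands, stretches in which the CG dinucleotide has not been lost. Most H3K4me3 peaks are short, and unusually long ones are known from genes that define the identity of a cell type. MOF (Kat8) acetylates lysine 16 of histone H4 and works in NSL and MSL complexes, of which the former is found at promoters of housekeeping genes. H3K27ac marks active promoters and enhancers, and Rfx2 is a transcription factor best known from ciliary genes.

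The MOF-free broad peaks ranged from strings of DNA nearly without CG to dense CpG islands. The sequence at the summit, the point of highest H3K4me3, is shown for members from either end of that range, and for a pair of broad peaks with MOF. Each window is 201 bases long, is centred on the summit, overlaps no annotated exon, and is written in the direction of the nearest gene. Capitals mark each CG dinucleotide. The windows come from RefSeq assembly GRCm38.p6 (mm10). Trp63 (chr16:25803806-25804006, plus strand), Marcks (chr10:37137632-37137832, minus strand), Trim29 (chr9:43311680-43311880, plus strand) and Gli1 (chr10:127340989-127341189, minus strand) stand for the widest members. Edn1 (chr13:42302272-42302472, plus strand) stands for wide members without H3K27ac. Mllt1 (chr17:56934766-56934966, minus strand), Styx (chr14:45351584-45351784, plus strand) and Pds5b (chr5:150674385-150674585, plus strand) stand for the members with the highest H3K4me3 enrichment. Pkp1 (chr1:135917366-135917566, minus strand) and Esrp1 (chr4:11385892-11386092, minus strand) are the widest broad peaks with MOF. All 10 windows lie in introns of the named genes.
Trp63: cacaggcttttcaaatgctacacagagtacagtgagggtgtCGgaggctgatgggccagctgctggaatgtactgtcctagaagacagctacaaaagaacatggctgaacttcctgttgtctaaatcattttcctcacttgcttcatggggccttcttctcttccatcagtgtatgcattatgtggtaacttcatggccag
Marcks: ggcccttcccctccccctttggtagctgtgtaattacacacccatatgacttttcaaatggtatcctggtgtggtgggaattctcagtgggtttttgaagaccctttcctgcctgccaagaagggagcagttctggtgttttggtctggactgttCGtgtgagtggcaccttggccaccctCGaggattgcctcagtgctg
Trim29: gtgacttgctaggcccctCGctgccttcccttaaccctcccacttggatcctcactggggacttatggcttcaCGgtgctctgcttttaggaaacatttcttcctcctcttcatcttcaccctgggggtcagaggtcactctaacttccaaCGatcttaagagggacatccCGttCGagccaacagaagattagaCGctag
Gli1: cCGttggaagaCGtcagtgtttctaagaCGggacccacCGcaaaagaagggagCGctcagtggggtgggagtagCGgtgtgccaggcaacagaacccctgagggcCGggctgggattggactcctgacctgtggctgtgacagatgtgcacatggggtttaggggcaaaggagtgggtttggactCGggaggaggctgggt
Edn1: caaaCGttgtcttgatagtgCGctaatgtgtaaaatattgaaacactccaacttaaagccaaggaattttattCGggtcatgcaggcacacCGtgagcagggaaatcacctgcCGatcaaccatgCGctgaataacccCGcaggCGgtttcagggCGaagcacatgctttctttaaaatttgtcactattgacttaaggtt
Mllt1: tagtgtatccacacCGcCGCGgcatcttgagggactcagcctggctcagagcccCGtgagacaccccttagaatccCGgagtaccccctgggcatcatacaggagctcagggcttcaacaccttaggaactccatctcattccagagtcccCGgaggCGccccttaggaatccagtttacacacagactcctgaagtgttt
Styx: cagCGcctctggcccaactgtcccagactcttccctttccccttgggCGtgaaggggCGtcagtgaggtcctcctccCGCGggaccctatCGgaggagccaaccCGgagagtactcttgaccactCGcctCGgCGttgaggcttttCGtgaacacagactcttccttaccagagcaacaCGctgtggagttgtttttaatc
Pds5b: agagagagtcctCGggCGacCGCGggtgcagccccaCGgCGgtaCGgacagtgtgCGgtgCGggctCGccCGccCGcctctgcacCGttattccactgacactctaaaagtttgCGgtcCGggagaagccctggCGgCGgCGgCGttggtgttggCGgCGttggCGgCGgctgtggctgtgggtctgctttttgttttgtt
Pkp1: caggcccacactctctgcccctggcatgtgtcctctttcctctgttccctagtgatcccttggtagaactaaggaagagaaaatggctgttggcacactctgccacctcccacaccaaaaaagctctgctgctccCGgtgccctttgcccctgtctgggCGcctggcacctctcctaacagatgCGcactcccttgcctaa
Esrp1: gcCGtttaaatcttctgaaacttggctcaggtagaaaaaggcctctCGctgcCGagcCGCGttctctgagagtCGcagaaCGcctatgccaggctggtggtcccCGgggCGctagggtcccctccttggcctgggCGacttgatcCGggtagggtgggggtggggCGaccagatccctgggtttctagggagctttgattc

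The Trp63 window held 1 CG dinucleotide, that of Marcks 2, that of Trim29 6 and that of Gli1 8. The Edn1 window held 9, that of Mllt1 7, that of Styx 12 and that of Pds5b 23. Among broad peaks with MOF, the Pkp1 window held 3 and the Esrp1 window 12. Over all MOF-free broad peaks the median was 12 CG dinucleotides per 201 bases (quartiles 7 and 17, n = 2067), against 13 over broad peaks with MOF (quartiles 9 and 18, n = 2409), 7 over narrower MOF-free peaks (quartiles 3 and 13, n = 16520) and 9 over all H3K4me3 peaks of chromosomes 1 to 19. The printed windows with fewest CG dinucleotides belong to very wide peaks, with MOF or without.

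Of all broad H3K4me3 peaks, 46.2% had no MOF (95% exact confidence interval 44.7 to 47.7%). This share depends on the MOF list: with only the higher-scoring 50% of MOF peaks, 2940 of the broad peaks were MOF-free and 1536 had MOF. The share without MOF was 47.2% (45.4 to 49.0%) at 1500 to under 2000 bp, 44.7% (41.7 to 47.7%) at 2000 to under 2500 bp, 42.6% (36.9 to 48.4%) at 2500 to under 3000 bp and 42.3% (32.3 to 52.7%) at 3000 bp or more. The intervals of the 4 width classes overlapped. The MOF-free broad peaks had a median width of 1795 bp (quartiles 1618 and 2086.5 bp, up to 3947 bp), and those with MOF a median of 1831 bp (quartiles 1643 and 2122 bp, up to 4157 bp). Median H3K4me3 fold enrichment, the height of the summit over the local background as the authors' peak caller gave it, was 6.73 (quartiles 5.42 and 8.0) without MOF and 7.11 (quartiles 5.84 and 8.12) with MOF. Wide peaks were low: in MOF-free peaks the median fold enrichment was 7.40, 5.84, 4.56 and 3.57 from the narrowest to the widest class.

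**Figure D1:**
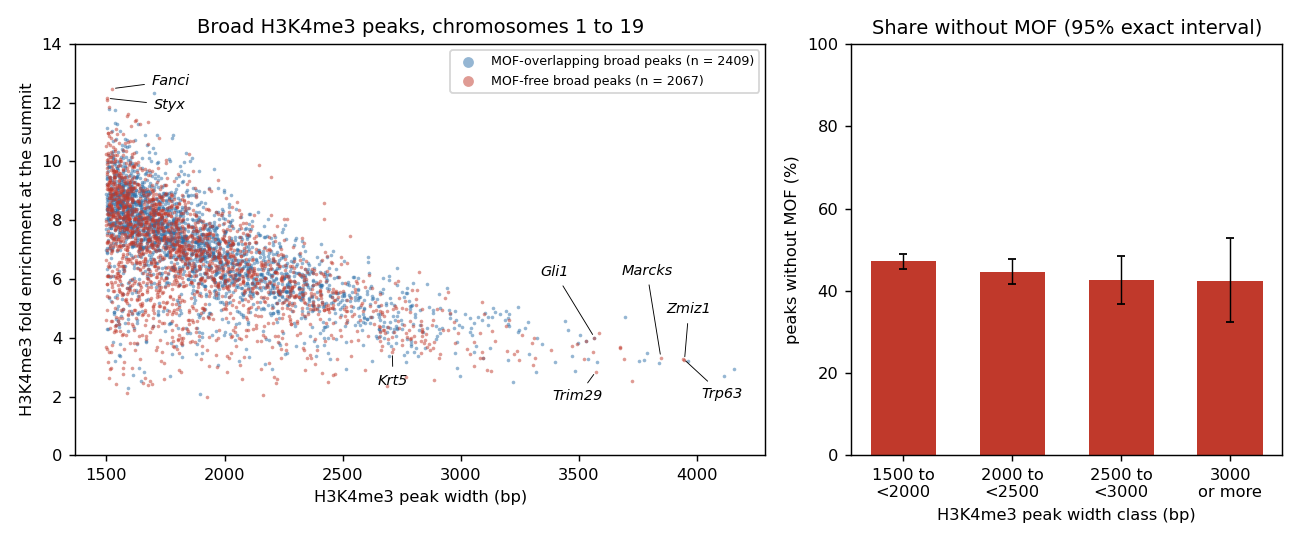
Left, H3K4me3 peak width (bp) against H3K4me3 fold enrichment at the summit for each broad peak, MOF-free in red and MOF-overlapping in blue, with members named in the text labelled. Right, share of broad peaks without MOF in 4 width classes with 95% exact intervals, which fell from 47.2% to 42.3% with overlapping intervals.

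At the width limit, 7, 6 and 7 MOF-free peaks were 1500, 1501 and 1502 bp wide, and 5, 8 and 3 were 1499, 1498 and 1497 bp wide. Just inside stood the peak at Smyd2, a lysine methyltransferase gene, with a fold enrichment of 10.3, and just outside that at Dock1, a gene of a Rac activator, with 8.79. The rule had left out every peak that touched MOF. Within 1 kb of a MOF peak lay 67 MOF-free broad peaks (3.24%, 2.52 to 4.10%), within 10 kb 24.2% (22.4 to 26.1%) and within 100 kb 1838 (88.9%, 87.5 to 90.2%), and the median distance was 24481 bp. Narrower MOF-free peaks lay at a similar median distance of 24310.5 bp, and 4.53% (4.22 to 4.86%) of them lay within 1 kb. The distance was thus not particular to broad peaks. The nearest member abutted a MOF peak near Gadd45a, a growth arrest gene, and the next lay 24 bp from one at Egr3. On the other side of the rule, the smallest overlap was 61 bp, in the peak at Sema6a, which encodes a semaphorin. In broad peaks with MOF, MOF covered a median of 57.0% of the H3K4me3 peak (quartiles 39.7 and 72.8%).

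The 10 widest MOF-free peaks lay at genes of varied roles. Their values come from the rule and are descriptive. The peak at Zmiz1, a transcriptional coregulator gene, was the widest at 3947 bp (chr14:25457553-25461499), with an H3K4me3 fold enrichment of 3.23, and the nearest MOF peak lay 104000 bp away. At Trp63, the gene of the master regulator p63 of stratified epithelia, the peak spanned 3941 bp (chr16:25801918-25805858) with a fold enrichment of 3.29. It began 2 bp past an internal TSS of Trp63, had its summit 1990 bp into the intron, and lay 37100 bp from MOF. It is therefore counted as having no TSS inside, although it follows a start site directly. Marcks, which encodes a substrate of protein kinase C, had a peak of 3847 bp with a fold enrichment of 3.32, and Pcdh7, a protocadherin gene, had 3689 bp at 3.27. Tenm4, a teneurin gene, had 3676 bp at 3.69. The peak at Niban2 was 3587 bp wide at 4.18 and that at 4833439F03Rik 3673 bp at 3.66. Trim29, an epithelial TRIM family gene, had 3572 bp at 2.85, of which 98 bp lay upstream of the TSS and 3473 bp downstream. Gli1, the Hedgehog-responsive transcription factor, had 3566 bp at 4.01. The remaining member of the 10 widest had its summit in an exon of the noncoding RNA Malat1, spanned 3724 bp at 2.54 and lay 1813 bp from MOF. All 10 were low and wide, with fold enrichments between 2.54 and 4.18.

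The members with the highest enrichment were of another kind. They were 1501 to 1675 bp wide, close to the limit. Fanci, a Fanconi anaemia DNA repair gene, led with 12.5 at a width of 1523 bp (chr7:79391578-79393100). It was followed by Styx, a pseudophosphatase gene, at 12.2, Nsmce4a, of the SMC5/6 complex, at 12.1, and Mllt1, of the super elongation complex, at 11.9. The start region of Map3k10, a kinase gene, and Zfp607b reached 11.6, Pds5b, a cohesin regulator, 11.4, Ccny, a cyclin gene, 11.3, and the shared start region of Nsmce2 and Washc5 11.3. Of the 10 members with the highest enrichment, 9 held a TSS. The exception, at 11.6, lay 126198 bp from the nearest TSS on chromosome 12, and 74.7% of its words of 31 bases were not unique in the assembly.

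H3K27ac, which the rule did not use, was present at nearly all MOF-free broad peaks but at fewer than where MOF was present. An H3K27ac peak overlapped 1898 of 2067 MOF-free broad peaks (91.8%, 90.6 to 93.0%) and 2343 of 2409 with MOF (97.3%, 96.5 to 97.9%). The background over all H3K4me3 peaks was 65%. The difference was -5.44 percentage points (95% Newcombe interval -6.82 to -4.11). Its size depended on the settings, from -3.55 points with the more significant 50% of H3K4me3 peaks to -14.6 with the more significant 50% of H3K27ac peaks, with -10.02 at a width minimum of 1000 bp and -9.35 where H3K27ac had to cover at least 20% of the peak. In peaks of 3000 bp or more, and in those under 2000 bp with an H3K4me3 fold enrichment below 5, its interval included 0. With 1 list for each antibody, this interval and those below cover counting error over peaks only, and no test across replicates was possible. Narrower MOF-free peaks overlapped H3K27ac in 52.9% of cases (52.2 to 53.7%), 38.9 points less (37.4 to 40.2), but a wider peak has more bases in which an overlap can fall. Where H3K27ac was present, its highest fold enrichment in the peak had a median of 5.81 without MOF (n = 1898) and 6.89 with MOF (n = 2343). Over all peaks of either group, those without H3K27ac included, it covered a median of 53.1% against 61.6% of the H3K4me3 peak. At least 2 H3K27ac peaks lay in 21.1% (19.4 to 22.9%) of MOF-free broad peaks and in 18.3% (16.8 to 19.95%) of those with MOF, a difference of 2.75 points (0.411 to 5.09) in the other direction.

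The strongest H3K27ac among MOF-free broad peaks lay in the shared start region of Lig1, the replicative DNA ligase, and Zswim9, with a fold enrichment of 17.6 at an H3K4me3 fold enrichment of 10.9. Fanci had 13.2, Idi1, of isoprenoid synthesis, had 13.2, and Pm20d2 had 12.9. A peak 21239 bp from the nearest TSS, near Cela3a, had 12.9. At Trp63 the value was 3.60, with H3K27ac over 34.5% of the H3K4me3 peak, and at Zmiz1 it was 3.95 over 42.7%. These 5 members with the highest H3K27ac were 1501 to 1666 bp wide, whereas at the 10 widest members H3K27ac, where present, had fold enrichments of 3.17 to 4.40.

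H3K27ac was absent from 169 MOF-free broad peaks. Besides the Malat1 peak, the widest stood at Edn1, which encodes endothelin (3191 bp, H3K4me3 fold enrichment 4.41), Dst, the gene of a hemidesmosome linker (3090 bp, 5.23), Mir205hg, the host gene of the epithelial miRNA miR-205 (2868 bp, 3.60), and Krt5, the basal keratin (2710 bp, 3.51). The nearest H3K27ac peak lay 2755 bp from the Edn1 peak, 9134 bp from that of Dst, 2121 bp from that of Mir205hg and 1606 bp from that of Krt5. The H3K4me3 peaks of these 4 genes reached 2543, 2904, 2352 and 2350 bp downstream of the TSS. As a group, the 169 peaks held a TSS in 64.5% of cases (56.8 to 71.7%), against 84.8% (83.1 to 86.4%) of the 1898 with H3K27ac. A divergent gene pair, a start region that 2 genes share in opposite directions, was found in 3 of 169 against 234 of 1898. Words found elsewhere in the assembly too made up over 50% of all words in 19 of the 169 and in 3 of the 1898. Whether such sequence plays a part in the absence of H3K27ac was not tested.

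**Figure D2:**
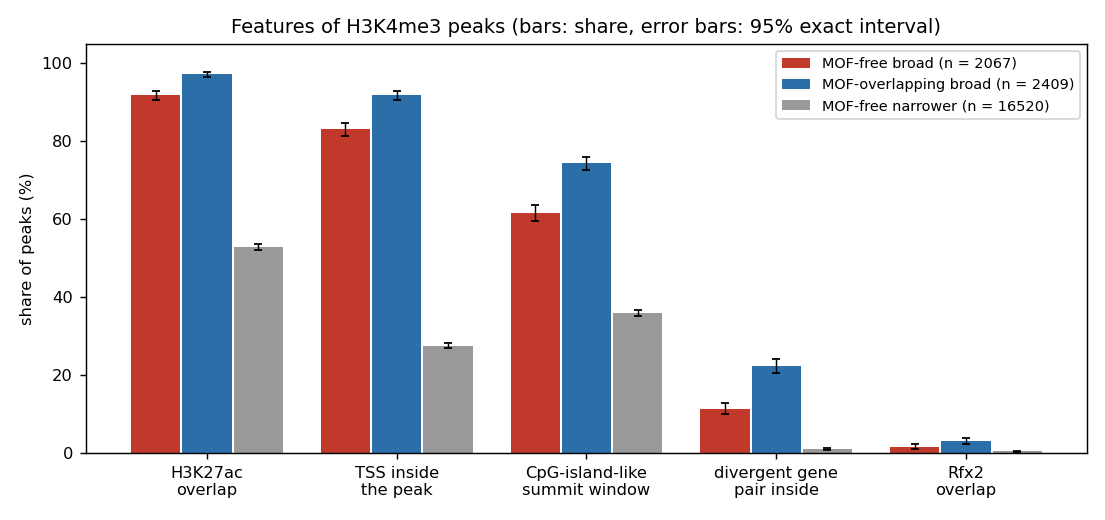
Shares (%) of 5 features in MOF-free broad, MOF-overlapping broad and narrower MOF-free H3K4me3 peaks, with 95% exact intervals as error bars. MOF-free broad peaks stood below MOF-overlapping ones and above narrower MOF-free peaks in each feature. Except for the summit window, of fixed size, a wider peak has more bases in which a feature can fall.

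Most MOF-free broad peaks covered a start of transcription. A TSS of a curated RefSeq transcript lay inside 1718 of 2067 (83.1%, 81.4 to 84.7%), against 2213 of 2409 with MOF (91.9%, 90.7 to 92.9%) and 42.4% of all H3K4me3 peaks. The difference between the broad groups was -8.75 points (-10.7 to -6.81), and -18.4 points among peaks of 3000 bp or more. All H3K4me3 peaks together were narrower, with a median of 762 bp. A wider peak has more bases in which a TSS or a gene pair can fall. Start sites of 2 or more genes lay in 334 MOF-free broad peaks (16.2%, 14.6 to 17.8%) and in 28.1% (26.3 to 29.9%) of those with MOF. Divergent pairs with starts at most 1 kb apart were held by 237 MOF-free broad peaks (11.5%, 10.1 to 12.9%) and by 539 with MOF (22.4%, 20.7 to 24.1%), a difference of -10.9 points (-13.1 to -8.74), while the share over all H3K4me3 peaks was 4.51%. Far from any TSS, by over 5 kb from the summit, lay 133 MOF-free broad peaks (6.43%, 5.42 to 7.58%) and 3.61% (2.90 to 4.44%) of those with MOF, a difference of 2.82 points (1.54 to 4.15). This was rarer than in all H3K4me3 peaks, of which 37.98% lay that far, and in narrower MOF-free peaks, of which 48.7% did. Among the 133, the widest were a peak 6624 bp from the miRNA gene Mir23a (3080 bp), one in an intron of the H3K27 demethylase gene Kdm6b (2859 bp) and one over an exon of Adamtsl5 (2836 bp). Each of these 3 overlapped 2 H3K27ac peaks, with highest fold enrichments of 2.97, 3.38 and 4.0.

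The differences in TSSs and gene pairs were also read within classes of H3K4me3 height, a split chosen after seeing the data, and whether they differed between the classes was not tested. Among peaks of 1500 to under 2000 bp, the share without MOF was 64.1% (57.7 to 70.2%) at an H3K4me3 fold enrichment below 5, 55.5% (51.8 to 59.1%) from 5 to below 7, 40.6% (38.2 to 43.0%) from 7 to below 9 and 48.7% (43.8 to 53.6%) at 9 or more. In the lowest of these classes a TSS lay in 84 of 152 MOF-free peaks and in 60 of 85 with MOF, a difference of -15.3 points (-27.05 to -2.39). In the highest it lay in 196 of 206 and in 202 of 217, a difference of 2.06 points with an interval from -2.63 to 6.78. In the classes between, from 5 to below 7 and from 7 to below 9, the TSS differences were -9.85 (-15.6 to -3.89) and -5.52 points (-8.32 to -2.94). Divergent pairs differed by -3.11 points (-10.9 to 2.69) in the lowest class, by -12.5 (-17.8 to -7.38) and -10.5 points (-14.1 to -6.73) in the classes between, and by -0.18 points (-6.95 to 6.65) in the highest, with 30 of 206 and 32 of 217. A difference in TSSs was thus not detectable in the highest class, nor one in pairs in the lowest and the highest. Peaks over 5 kb from a TSS made up 10.5% without and 4.71% with MOF in the lowest class. The shares were 8.87% and 5.21%, then 5.94% and 3.53%, in the classes between. In the highest class the order was the other way, 3.88% (1.69 to 7.51%) and 5.53% (2.89 to 9.46%). The intervals of the groups overlapped in each class.

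Around the TSS, MOF-free broad peaks extended into the gene. Of the 1384 with a TSS of exactly 1 gene, 1213 reached farther downstream than upstream (87.6%, 85.8 to 89.3%), with medians of 496.5 bp upstream and 1292.5 bp downstream. The 1536 such peaks with MOF had medians of 617 and 1227 bp, and 1316 of them were longer downstream (85.7%, 83.8 to 87.4%). The difference in this share was 1.97 points with an interval from -0.51 to 4.43, so asymmetry as such was not distinguishable. The edges differed in position: 500 bp upstream of the TSS lay inside 49.8% of MOF-free peaks and 64.5% of those with MOF, whereas 1500 bp downstream lay inside 30.5% and 23.8%. H3K27ac lay over the TSS in 79.3% of MOF-free peaks and in 88.0% of those with MOF, and 1500 bp downstream in 8.38% and 5.66%.

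**Figure D3:**
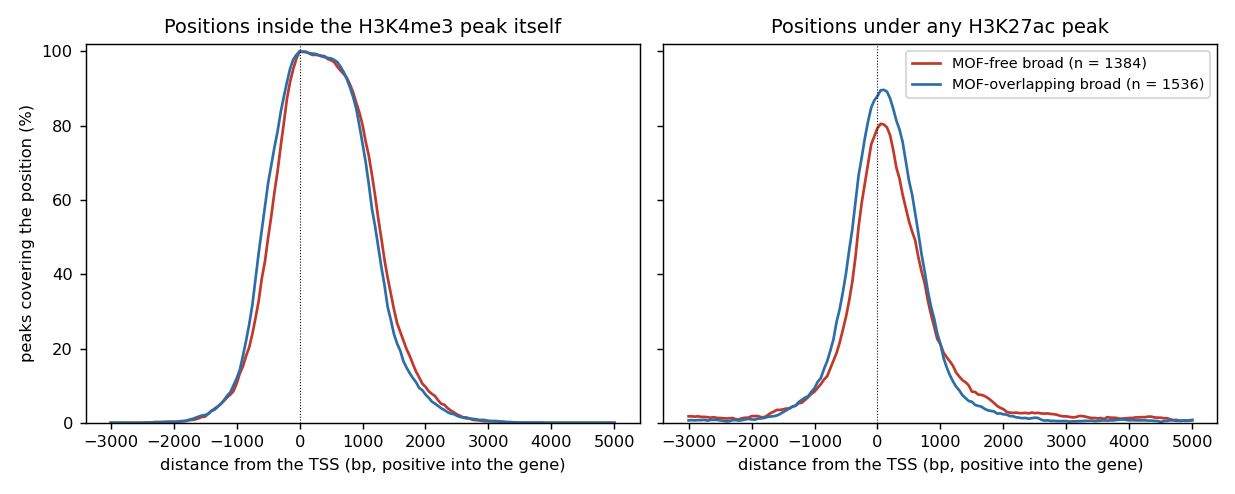
Percentage of broad peaks with a TSS of exactly 1 gene that cover each position (left, the H3K4me3 peak itself, which chose the peaks, and right, any H3K27ac peak), against distance from the TSS in bp, positive into the gene. MOF-free peaks (red, n = 1384) reached less far upstream and farther downstream than MOF-overlapping peaks (blue, n = 1536), and fewer had H3K27ac at the TSS (79.3% against 88.0%).

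The DNA of MOF-free broad peaks was poorer in CG. The summit window, 250 bases to either side of the summit, was called CpG-island-like when its GC content was at least 50% and its ratio of observed to expected CG at least 0.6. This held for 1276 of 2067 MOF-free broad peaks (61.7%, 59.6 to 63.8%), for 1792 of 2409 with MOF (74.4%, 72.6 to 76.1%) and for 45.3% of all H3K4me3 peaks. The difference was -12.7 points (-15.4 to -9.92). Median GC content was nearly the same, 59.9% and 60.1%, whereas the median ratio of observed to expected CG was 0.69 without and 0.75 with MOF. The ratio was 0.20 at the Trp63 summit, 0.36 at Marcks and 0.44 at Gli1, against 1.06 at Zmiz1 and 0.99 at Pds5b. The lowest of all MOF-free broad peaks was 0.031, at Mir205hg. CpG-island-like windows became fewer with width, from 66.2% (63.6 to 68.6%) at 1500 to under 2000 bp over 53.9% (49.3 to 58.4%) and 50% (41.0 to 59.0%) to 36.6% (22.1 to 53.1%) at 3000 bp or more. In broad peaks with MOF they went from 78.4% (76.3 to 80.4%) to 70.5% (66.6 to 74.1%), 57.1% (49.3 to 64.6%) and 55.4% (41.5 to 68.7%). The share was lower without MOF in every width class, but from 2500 bp upwards the intervals of the groups overlapped. At 3000 bp or more the difference was -18.8 points (-36.6 to 1.26). The share was also lower in each of the 4 height classes, where the difference was smallest, -7.95 points (-15.0 to -0.88), at a fold enrichment of 9 or more.

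Short sequences bound by general promoter factors were also counted in the summit window, on either strand. The ETS letters CCGGAAG were in 13.4% (12.01 to 15.0%) of MOF-free broad peaks, in 21.6% (19.96 to 23.3%) of those with MOF and in 11.9% of all H3K4me3 windows, a difference between the broad groups of -8.14 points (-10.3 to -5.92). The YY1 letters AAGATGGC were in 2.52% (1.88 to 3.29%), 7.31% (6.30 to 8.42%) and 3.50%, a difference of -4.79 points (-6.05 to -3.55). The NRF1 letters GCATGCGC were in 2.52%, 4.86% and 3.07%, and the CRE letters TGACGTCA in 1.50%, 2.99% and 1.87%. The GC box GGGCGG was in 60.1%, 65.3% and 50.8%. These 5 were less frequent without MOF. All but the YY1 letters contain CG, as does the E-box, which did not differ detectably. Within CpG-island-like windows alone, the ETS letters were in 17.2% (15.1 to 19.3%) without and 26.5% (24.5 to 28.6%) with MOF, the YY1 letters in 3.53% (2.58 to 4.69%) and 8.87% (7.60 to 10.3%), and the GC box in 73.7% (71.2 to 76.1%) and 75.1% (73.0 to 77.1%). Outside such windows the YY1 letters were in 0.885% (0.357 to 1.81%) and 2.76% (1.61 to 4.37%), and the ETS letters in 7.46% and 7.29%. For the AP-1 and TATA letters no difference was detectable either. The AP-1 letters TGANTCA were in 7.93% and 7.89%, against 12.5% of all windows, with a difference of 0.05 points (-1.53 to 1.65). The TATA letters TATAAA were in 8.13% and 7.80%, and the E-box CACGTG in 11.5% and 11.7%. The spaced pair CATG, 6 bases, CATG of the p53 family was in 8 MOF-free broad windows (0.387%) and 7 with MOF (0.291%), against 0.888% of all windows. The NRF1 letters contain the CATG of this pair, and the AP-1 and CRE letters share TGA and TCA. A match is a string of letters and says nothing of binding.

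**Figure D4:**
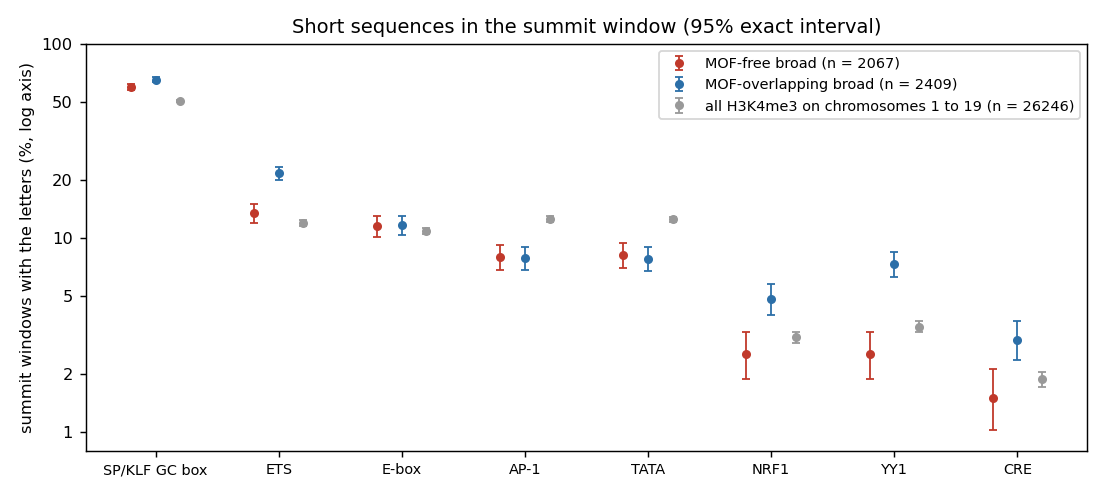
Percentage of summit windows that hold 8 short sequences (log axis, points with 95% exact intervals) in MOF-free broad, MOF-overlapping broad and all H3K4me3 peaks. ETS, NRF1, YY1 and CRE letters were fewer in MOF-free than in MOF-overlapping broad peaks (YY1 2.52% against 7.31%), whereas AP-1, TATA and E-box letters were close in both (AP-1 7.93% against 7.89%).

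Rfx2 peaks met 34 MOF-free broad peaks (1.64%, 1.14 to 2.29%) and 74 with MOF (3.07%, 2.42 to 3.84%), against 1.2% of all H3K4me3 peaks. Most of the latter were narrower, with fewer bases in which an overlap can fall. The difference between the broad groups was -1.43 points (-2.32 to -0.53). It was not detectable within any of the 4 height classes, where it ran from -1.35 to 0.66 points, nor at widths of 3000 bp or more, where neither group met Rfx2. The highest Rfx2 fold enrichment was 26.97, at Mast3, which encodes a kinase, with H3K4me3 at 5.90 and H3K27ac at 6.97. It was 18.1 in a peak whose edge lay 12 bp from the start of Kcnn1, a potassium channel gene, 13.6 at Chd4, of the NuRD remodelling complex, and 12.8 at the pair of Ccdc189 and Rnf40. The pair of Cinp and Tecpr2 had 12.5, 1700037H04Rik 11.8, Cbx8, of Polycomb complex PRC1, 10.4 and Cic, a transcriptional repressor gene, 9.86. Zbtb5 had 8.91 and the cell cycle kinase gene Cdk4 8.74. All 34 also carried H3K27ac, since none of the 169 peaks without it met Rfx2, which allows a share of up to 2.16% there by the exact interval.

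To relate the peaks to genes, 24963 genes of chromosomes 1 to 19 were scored by a promoter window that ran from 1 kb before a TSS to 100 bp past it. A MOF-free broad peak lay at 2155 genes, 15.8% of the 13666 with H3K4me3 there, and a broad peak with MOF at 2979, or 21.8%. Of all genes with a broad peak, 42.1% (40.8 to 43.5%) had a MOF-free one. The lists below were written with earlier results of these data known, and width and MOF chose the peaks, so the counts are descriptions to be read beside 15.8%, 21.8% and 42.1%, with no test.

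Epidermal genes of structure and adhesion had MOF-free broad peaks in 22 of 40 cases with H3K4me3 (55.0%, 38.5 to 70.7%), and 22 of their 33 broad promoters were MOF-free (66.7%, 48.2 to 82.0%). Besides Trim29 and Dst, they were led by Lad1, a basement membrane anchoring gene (2802 bp, H3K4me3 fold enrichment 4.07, H3K27ac fold enrichment 4.98, 35982 bp from MOF), and Perp, a desmosomal p63 target (2784 bp, 3.96, 5.08, 23573 bp from MOF). Others in this class were Krt5, Krt15 and Krt17 among keratins, Dsp, Dsg3, Pkp3 and Ppl of desmosomes, Itgb4 and Plec of hemidesmosomes, the integrin gene Itga3, and Cldn1 and Cldn4 of tight junctions. Neighbours of the same structures had broad peaks with MOF, among them Krt14, the partner of Krt5, and Pkp1, Jup, Dsc3, Cdh1 and Itgb1. Krt1, Krt10, Ivl and Lor, of the upper layers, had no H3K4me3 peak at the promoter. Members of 1 structure thus stood in either class.

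Transcription factors of the epidermis had MOF-free broad peaks in 7 of 27 cases (25.9%, 11.1 to 46.3%), beside 15.8% of all genes with H3K4me3, and broad peaks with MOF in 6 (22.2%), beside 21.8%. Apart from Trp63 they included Tfap2c, of the AP-2 family (2671 bp, H3K4me3 fold enrichment 4.27, H3K27ac fold enrichment 5.37), the Notch target Hes1 (2348 bp, 3.32, 2.73), Ovol1, a zinc finger gene of differentiation (2290 bp, 4.90, 4.18), Grhl1 and Maf. Their relatives Grhl2 and Ovol2 had broad peaks with MOF, while Klf4, Klf5 and Tfap2a had narrower peaks without it. The Hes1 peak lay 1005 bp from MOF and that of Tfap2c 20001 bp.

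Hair follicle regulators often had MOF-free peaks where their promoters were broad. MOF-free broad peaks were found in 13 of 28 with H3K4me3 (46.4%, 27.5 to 66.1%), and 13 of 16 broad promoters were MOF-free (81.2%, 54.4 to 96.0%). They included the Hedgehog mediators Gli1, Gli2 (3089 bp, fold enrichment 3.53) and Gli3, the receptor gene Ptch1, the Wnt ligands Wnt3 (3314 bp, 3.32), Wnt10a and Wnt10b, the Wnt effector Lef1 (3307 bp, 3.08) and the stem cell factor Sox9 (2832 bp, 3.87). H3K27ac fold enrichment was 2.89 at Wnt3, 4.34 at Lef1, 4.04 at Gli2, 4.80 at Sox9 and 8.21 at Pthlh. Shh itself had a narrower MOF-free peak, and Dlx3, Edar and Sostdc1 were the 3 with a broad peak and MOF.

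Signalling genes had MOF-free broad peaks in 15 of 34 cases (44.1%, 27.2 to 62.1%) and 15 of 23 broad promoters were MOF-free (65.2%, 42.7 to 83.6%). The widest were at the receptor Fgfr3 (2667 bp), the Notch ligand Dll1 (2660 bp), the receptor Notch1 (2654 bp) and Id1, an inhibitor of basic helix-loop-helix factors (2452 bp). Their H3K27ac fold enrichments were 3.25, 4.07, 3.797 and 2.86. Lgr5 and Wnt5a had MOF-free broad peaks without H3K27ac, and Egfr, Erbb3, Notch2 and Fgfr1 had broad peaks with MOF. Patterning factors had MOF-free broad peaks in 6 of 29 cases (20.7%, 7.99 to 39.7%, beside 15.8% of all genes), among them Meis1 (2847 bp), Hoxc8 (2292 bp), Dlx1 (1856 bp, without H3K27ac), Hoxc4 and Tbx3.

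Lists of more general cell functions are given beside the 42.1% MOF-free among all genes with a broad promoter. Among ribosomal protein genes, 7 of 25 broad promoters were MOF-free (28%, 12.1 to 49.4%), with Rps18 (2140 bp), Rpl10a (2078 bp), Rpl7 (1911 bp) and Rpl18 (1878 bp) the widest. Among subunits of the respiratory chain it was 3 of 20 (15%, 3.21 to 37.9%), namely Cox4i1 (2242 bp), Ndufv2 (1639 bp) and Cyc1 (1505 bp). Immediate early genes, which respond within minutes to stimuli, had 4 of 15 (26.7%, 7.79 to 55.1%): Klf10 (2397 bp), Egr3 (2218 bp), Egr1 (1698 bp) and Atf3 (1650 bp), of which Egr3 lay 24 bp and Egr1 570 bp from MOF, while Fos, Jun, Junb and Myc had broad peaks with MOF. Of genes for H3K4 methyltransferase complexes and demethylases, Kmt2d (2036 bp, 225 bp from MOF) and Wdr5 (1998 bp) were MOF-free among 7 broad ones (28.6%, 3.67 to 71.0%). Primary cilium genes had 4 broad promoters, all of them with MOF, and 35 of their 39 genes with H3K4me3 had narrower peaks. Factors of nervous and mesodermal lineages had no broad peak at all among 11 with H3K4me3, which allows up to 28.5%.

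**Figure D5:**
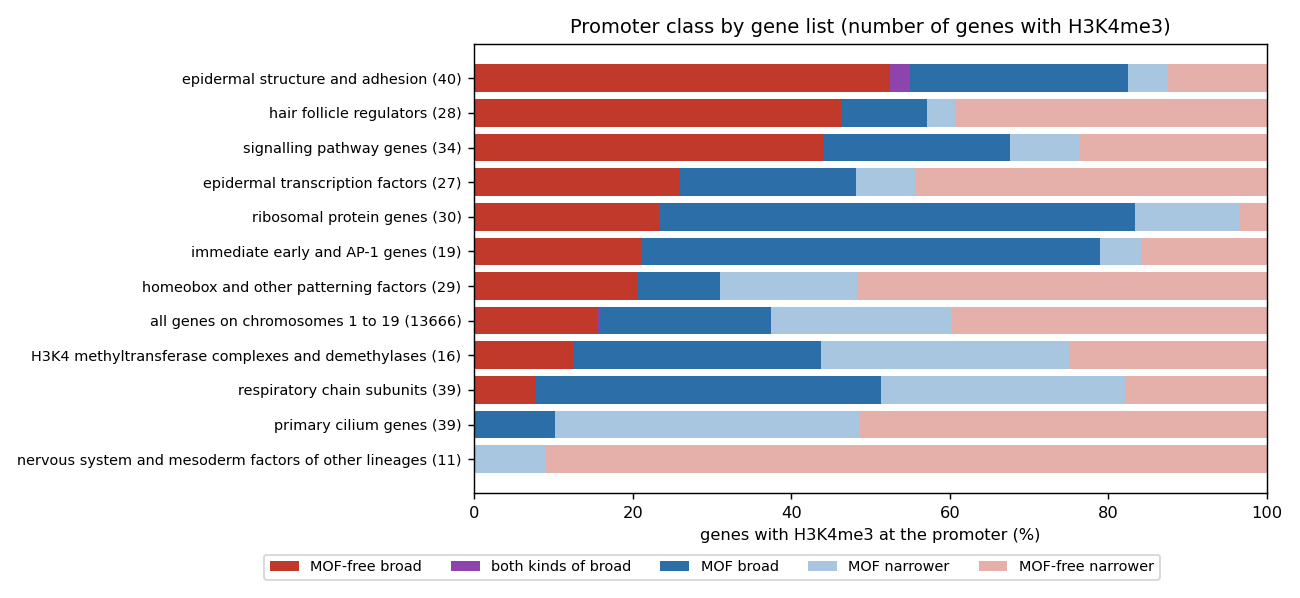
Genes with H3K4me3 at the promoter (%) by promoter class for 11 gene lists and all genes, with the number of such genes in brackets. The MOF-free broad class, together with genes that had both kinds, made up 55.0% of epidermal structure and adhesion genes, 15.8% of all genes and 0 of 39 primary cilium genes.

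Defining markers were read in the same way to check the tissue. Of 10 keratinocyte markers, 5 had a MOF-free broad peak (Krt5, Trp63, Itgb4, Perp and Dsp) and 2 a broad peak with MOF (Krt14 and Sfn), while Col17a1 had a narrower MOF-free peak and Krt1 and Krt10 had no H3K4me3 at the promoter. None of the 5 fibroblast, 5 immune or 5 endothelial markers had a MOF-free broad peak, and 3, 5 and 4 of them had no H3K4me3 at the promoter. The nerve markers Tubb3 and Elavl4 had no H3K4me3 either. Among 5 melanocyte markers Pmel, a melanosome gene, had one of 1518 bp with a fold enrichment of 7.24, while Mitf had a narrower peak with MOF and Dct, Tyr and Sox10 had none of any width. That peak held the TSS of its neighbour Cdk2, a cell cycle kinase gene, and H3K27ac with a fold enrichment of 7.84. Any part of other cell types in the results was not tested.

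Some members stood together. Joined when less than 50 kb apart, the 2067 peaks formed 1852 loci, of which 1672 held 1 peak, 152 held 2 and 28 held 3 or more, with at most 5. At the Hoxc cluster, 5 peaks of 1603 to 2292 bp around Hoxc8, Hoxc6, Hoxc5 and Hoxc4 lay within 45.7 kb (chr15:102990343-103036033), with 1 broad peak with MOF between them. Another 5 lay within 95.6 kb on chromosome 17 at Ptk7, Klhdc3, Mea1, Ppp2r5d and Pex6, also with 1 broad peak with MOF. Groups of 4 without any broad MOF peak in the span lay on chromosome 10 from Adamtsl5 to Uqcr11 (64.7 kb) and on chromosome 17 from Tapbp to Rps18 (37.65 kb) and from Lsm2 to Clic1 (101 kb).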

How the data were processed

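The authors aligned reads with Bowtie2 to mm10 and called peaks with MACS2 library by library, per the study's methods and the submitters' processing notes. A control library is not given in the sources used here. The deposited H3K4me3, H3K27ac and Rfx2 lists give for each peak the fold enrichment, a ratio over the local background, the −log10 q-value and the summit position, all written by the peak caller the authors used. The deposited MOF list holds regions with a score whose scale was not stated. It holds more regions than the study states for MOF, so absence of MOF means absence from this list. Peak heights were compared only within a list. The lists hold no read counts. The study states raw and mapped read numbers for each library, and these differ between libraries. They were not used here, so no comparison takes depth into account.

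Overlap meant at least 1 shared base. Shares carry exact (Clopper-Pearson) 95% intervals and differences Newcombe intervals, in Python 3.11.15 with scipy 1.17.1 and pysam 0.24.0. TSSs were those of curated RefSeq transcripts of GRCm38.p6, and 0 peaks ended beyond its chromosomes. Scripts were tested on simulated data against bedtools 2.31.1. Of per-sample columns, 0 were left unmapped.

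Peaks, gene lists and markers were chosen with earlier results of these data known. Named are the 10 widest peaks, the 10 highest in H3K4me3, the 5 highest in H3K27ac, the 5 widest without H3K27ac, the 3 widest over 5 kb from a TSS, the 10 highest in Rfx2, the 5 loci with most peaks, the 3 widest with MOF, peaks at the width limit and the widest of each gene list. Others were named after their values were seen. Alternatives covered width, overlap, peak strength, annotation, CpG limits, joined peaks and chromosome X. Some genes that these rules name are not reported here.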

Additional observations from a re-analysis of the deposited data

Results flagged for a closer look

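Chromosome X held 92 MOF-free broad H3K4me3 peaks among 119 broad ones (77.3%, 95% exact interval 68.7 to 84.5%), against 46.2% on chromosomes 1 to 19, a difference of 31.1 points (22.7 to 37.9). Over X peaks of any width the share was 87.6% (634 of 724), against 70.8% on chromosomes 1 to 19, so it was higher on X for all peaks and not for broad ones alone. This was marked because chromosome X lies outside the main comparisons, and it entered only as an alternative setting. On single autosomes the share ran from 38.9% on chromosome 13 to 53.6% on chromosome 15. Of MOF peaks 1.13% lay on X, of H3K27ac peaks 1.89% and of H3K4me3 peaks 2.68%. H3K27ac overlapped 86 of the 92 and a TSS lay in 80. The widest stood at Efnb1, an ephrin gene (3825 bp), and Flna, the filamin A gene (2584 bp).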

How the results depend on the processing

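Of 86 recomputed values, 74 kept their direction with an interval that excluded 0. With a width minimum of 3000 bp, which leaves 41 and 56 peaks, the intervals of 4 differences included 0: -5.53 points for H3K27ac, -18.8 for CpG-island-like windows, -8.10 for divergent pairs and 0 for Rfx2. Classes of H3K4me3 height within 1500 to under 2000 bp and the omission of repetitive peaks were chosen after seeing the data. At a fold enrichment below 5 the intervals included 0 for H3K27ac (-9.67) and divergent pairs (-3.11), and the Rfx2 difference reversed to 0.66 points on a single member. At 9 or more the TSS difference reversed to 2.06 points and that of divergent pairs was -0.18. The Rfx2 difference was -0.73, -1.35 and -1.31 points from 5 to below 7, from 7 to below 9 and at 9 or more, each with an interval that included 0. The cause was not tested. Keeping the more significant 50% of H3K27ac peaks moved the H3K27ac difference to -14.6 points. No paired analysis was possible because a single list stood for every antibody. Limits are that sequencing depth was not taken into account, that peaks of neighbouring genes are not independent, and that the spread between libraries is unknown.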
